A study of Mus musculus with 81 samples.

Results

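The genes described here are 40 components of the extracellular matrix, listed by name: fibrillar collagens, basement membrane proteins, microfibril and elastic fibre proteins, collagen crosslinking enzymes, other collagens, proteoglycans, matricellular and adhesive glycoproteins, and enzymes and inhibitors of matrix turnover. Each gene was read from the probe set that carries its symbol alone and has the highest mean over all 81 arrays. Of the 40 genes 38 could be measured in this way, among 22180 genes in all. Fbn1 (fibrillin-1) and Loxl2 (a lysyl oxidase) were not analysed here, and the probe sets for Loxl2 were shared with the symbol Gm21451.

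Whole hearts came from male mice of the BXD family, recombinant inbred strains bred from C57BL/6J and DBA/2J, and from these parents. The high fat group held 39 pools and the chow group 42 pools, all from 29-week-old males that had been fasted overnight. A pool combined RNA of about 5 animals of 1 strain on 1 diet and was hybridised to 1 array, so variation among animals of a pool is hidden. Both diets were available for 39 strains, of which 37 were BXD strains and the others DBA/2J and C57BL/6J, and BXD60, BXD79 and BXD92a had a chow array alone. The make-up of the high fat diet was not stated in the labels read here, and the treatment protocol attached to the high fat samples describes chow feeding, in conflict with their diet label. The strains are the replicates when diets are compared within strains, and precision is set by the 39 strains with both diets and the spread of their differences.

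Levels are quoted in rescaled expression units: over its probe sets each array averages 8 with an SD of 2. Whether a unit is a doubling is unknown, so all differences stay in these units and folds are not given. In whole-heart RNA, fewer cells of a type and less RNA per cell cannot be told apart.

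The cardiac matrix is built mostly by fibroblasts, with endothelial cells, smooth muscle and cardiomyocytes adding basement membrane. Fibrillar collagens carry tension and are joined by crosslinking enzymes after secretion, whereas basement membranes of type IV collagen, laminin, nidogen and perlecan surround each cardiomyocyte and capillary. Type VI collagen forms beaded microfibrils between these layers, and matricellular proteins such as periostin and Sparc act on assembly more than on strength.

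The promoters of the type VI collagen chains, of Sparc and of Col1a2 are shown because the results below turn on these genes. The probe sets read for the type VI chains differed among themselves in their response to diet. Sparc had the smallest adjusted p of the members, and the probe sets of Col1a2 disagreed. The sequences are from RefSeq (GRCm38.p6) and give the bases just upstream of the annotated start, on the gene's own strand. Capitals mark GC boxes (GGGCGG) and CCAAT boxes (CCAAT), searched on both strands together with the TATA box letters (TATAAA), which none of these windows held.
Col6a1, chr10:76726045-76726294, minus strand: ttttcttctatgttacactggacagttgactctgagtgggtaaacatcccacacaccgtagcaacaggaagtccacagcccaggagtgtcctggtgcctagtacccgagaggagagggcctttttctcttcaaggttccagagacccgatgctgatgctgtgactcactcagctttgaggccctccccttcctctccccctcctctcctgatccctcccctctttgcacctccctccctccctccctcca
Col6a2, chr10:76623631-76623880, minus strand: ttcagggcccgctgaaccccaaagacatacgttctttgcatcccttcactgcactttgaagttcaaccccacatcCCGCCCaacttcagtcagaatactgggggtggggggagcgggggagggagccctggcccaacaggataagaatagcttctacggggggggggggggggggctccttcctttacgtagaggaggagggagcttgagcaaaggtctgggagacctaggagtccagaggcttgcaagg
Col6a3, chr1:90844002-90844221, minus strand: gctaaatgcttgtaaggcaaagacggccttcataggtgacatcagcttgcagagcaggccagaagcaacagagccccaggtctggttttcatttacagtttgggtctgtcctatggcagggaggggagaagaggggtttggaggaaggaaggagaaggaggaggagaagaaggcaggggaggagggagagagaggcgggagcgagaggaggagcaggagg
Sparc, chr11:55420081-55420330, minus strand: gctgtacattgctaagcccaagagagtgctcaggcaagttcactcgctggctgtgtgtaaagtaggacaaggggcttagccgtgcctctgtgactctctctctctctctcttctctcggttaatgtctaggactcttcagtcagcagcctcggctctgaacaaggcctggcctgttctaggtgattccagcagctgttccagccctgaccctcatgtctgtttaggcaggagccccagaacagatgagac
Col1a2, chr6:4505368-4505617, plus strand: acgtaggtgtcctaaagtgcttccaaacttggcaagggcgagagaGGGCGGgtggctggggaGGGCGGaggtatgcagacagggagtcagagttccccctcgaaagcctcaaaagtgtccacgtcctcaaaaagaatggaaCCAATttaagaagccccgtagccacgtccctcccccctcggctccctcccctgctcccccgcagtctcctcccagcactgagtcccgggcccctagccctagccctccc

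Col6a2 held 1 GC box, read on the opposite strand, and Col1a2 held 2 GC boxes and 1 CCAAT box, while the windows of Col6a1, Col6a3 and Sparc held none of the searched letters. RefSeq promoter windows were found for 24 of the 38 measured genes, 29 windows in all since some genes have several. A GC box stood in 18 of them (62.1%), against 32.7% of 32851 promoters of all genes and 42.6% of those of protein-coding genes. A CCAAT box stood in 8 windows (27.6%, against 33.8% of all promoters) and a TATA box in 4 (13.8%, against 12.4%), those of Col3a1, Postn and Tnc. These matches are descriptions of letters in a window of at most 250 bases.

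The first comparison asked which matrix genes differed between high fat and chow within strains. Of the 38 members 19 were higher on high fat, 1 was lower and 18 did not pass the test (limma with strain and diet as terms, Benjamini-Hochberg over all genes, adjusted p under 0.05). The same test called 45.0% of all genes, 23.8% higher and 21.2% lower. Among the genes above the median level, where 36 of the 38 members lie, it called 41.9%, with 23.3% higher and 18.7% lower. The members' median difference was 0.098 units, against 0.00526 for all genes, and 30 of 38 differences were above 0. For every member the ranges of the high fat and chow pools overlapped. The strain means, taken over both diets, spanned between 0.461 units for Dcn and 1.58 units for Mfap4. Such a span runs from the lowest to the highest strain and includes noise, so it cannot be weighed against a mean diet difference.

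Spike-in controls bear on how these calls are read. They were tested with the same model, fitted over all probe sets and adjusted over these rather than over the genes. Of 92 ERCC probe sets, which have no mouse target, 21 were higher and 16 lower (40.2%), at a mean level of 5.96 units. The 95th percentile of their absolute difference was 0.247 units. Of 75 bacterial and phage control probe sets, at a mean level of 9.03 units, 13 were higher and 6 lower (25.3%), and the 95th percentile of their absolute difference was 0.388 units. Postn (0.403) was the only member beyond the bacterial and phage value. Against the ERCC value Postn, Vcan, Col15a1, Col6a2 and Col6a3 differed by more, Sparc matched it as rounded, and the other members called higher or lower differed by less.

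**Figure D1:**
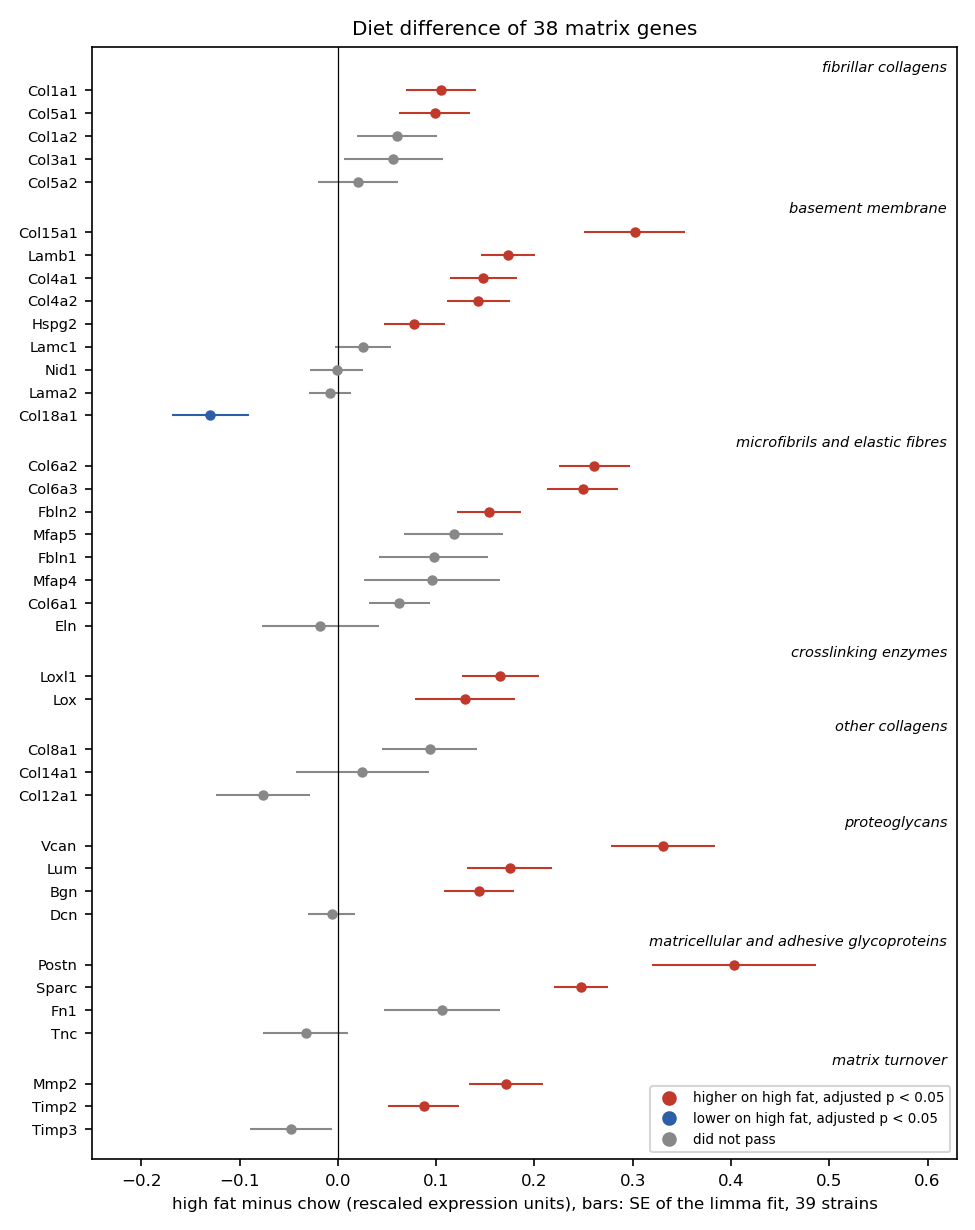
Difference between high fat and chow (x axis, rescaled expression units) of the 38 measured matrix genes, in 8 classes (y axis); points are the fitted differences over 39 strains and bars their standard errors. The members called higher lie right of 0, from Hspg2 at 0.0778 to Postn at 0.403, and Col18a1 alone was called lower, at -0.13.

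Among the fibrillar collagens 2 of 5 were higher on high fat, beside 23.8% of all genes. The class had a median difference of 0.0601 units. Col1a1, the main chain of type I collagen, ranged over 9.63, 10.13 and 10.54 units on high fat (lowest, median, highest of 39 pools), against 9.51, 10.08 and 10.40 on chow. The pools of both diets covered nearly the same range. Within strains Col1a1 was 0.105 ± 0.0358 units higher (SE), in 27 of 39 strains (adjusted p = 0.0149, limma). Col5a1, a chain of the type V collagen that starts fibrils, was 0.0985 ± 0.0358 units higher (adjusted p = 0.0225), in 22 strains. Its other, dimmer probe set was 0.211 ± 0.0476 units higher, in 27 strains (adjusted p = 0.000472 over all probe sets). The other values given for Col5a1 are from its brighter probe set. Over all 81 arrays with diet as the only term, which drops the strain block and adds the 3 chow-only arrays, the differences were 0.0988 for Col1a1 and 0.094 for Col5a1, and neither passed (adjusted p = 0.0801 for Col1a1, limma).

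Col1a2, the partner chain of Col1a1, did not pass by its brighter probe set. It ranged over 9.77, 10.22 and 10.63 units on high fat, against 9.66, 10.14 and 10.70 on chow, with a difference of 0.0601 ± 0.0411 (adjusted p = 0.237). The other probe set of Col1a2, at a mean level of 7.61, was 0.283 ± 0.0516 units higher, in 32 strains (adjusted p = 2.67e-05 over all probe sets). The call for Col1a2 therefore depends on the probe set, and which of them follows the transcript was not tested. Col3a1, the reticular collagen that mixes into type I fibrils, differed by 0.0565 (adjusted p = 0.377), and Col5a2 by 0.0205 (adjusted p = 0.706).

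Of 9 basement membrane members 5 were higher, 1 was lower and 3 did not pass, beside 23.8% of all genes higher and 21.2% lower. Col15a1, which links basement membranes to the fibrils beside them, ranged over 9.24, 9.83 and 10.43 units on high fat, against 8.83, 9.52 and 10.02 on chow. Its difference of 0.302 ± 0.0514 was above 0 in 31 of 39 strains (adjusted p = 6.02e-06). Col18a1, the other collagen of this kind and the source of endostatin, went the other way. Its pools ranged over 7.77, 8.22 and 8.62 units on high fat, against 7.94, 8.32 and 8.67 on chow, and its difference of -0.13 ± 0.0391 was below 0 in 27 strains (adjusted p = 0.00612).

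Lamb1, the laminin beta 1 chain, ranged over 10.46, 10.77 and 11.12 units on high fat, against 10.24, 10.59 and 10.85 on chow. It was 0.173 ± 0.0276 units higher, in 31 strains (adjusted p = 1.94e-06). Its laminin partners gave other values: Lamc1, the gamma 1 chain, differed by 0.0256 (adjusted p = 0.486) and Lama2, the alpha 2 chain typical of striated muscle, by -0.00785 (adjusted p = 0.791). Between Lamb1 and Lamc1 the difference in response was 0.148 units (95% interval 0.0994 to 0.196, 33 of 39 strains, sign-flip permutation test over strains, two-sided, adjusted p = 8.5e-05 over 17 pairs compared after the values were seen). Between Lama2 and Lamc1 it was -0.0334, with an interval of -0.0779 to 0.0111. Each gene in these pairs was read from 1 probe set, so a gap between probe sets and a gap between genes cannot be told apart.

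The chains of type IV collagen, the sheet-forming collagen of every basement membrane, had diet differences within 0.005 units of each other. Col4a2 ranged over 9.73, 10.31 and 10.64 units on high fat, against 9.73, 10.12 and 10.62 on chow, and was higher in 31 strains (0.143 ± 0.032, adjusted p = 0.000315). Col4a1 was 0.148 ± 0.0343 units higher, in 30 strains (adjusted p = 0.000469). The interval (95%) of that gap in response was -0.0432 to 0.0532. The genes lie head to head on opposite strands, with annotated starts 21 bases apart and the annotated genes overlapping between these starts. Hspg2 (perlecan, a heparan sulfate proteoglycan) was 0.0778 ± 0.0308 units higher, in 29 strains (adjusted p = 0.0362), a call that was lost in 10 of the 39 fits that each left out 1 strain, with the highest adjusted p at 0.0613. Nid1, the nidogen that ties laminin to type IV collagen, differed by -0.00118 (adjusted p = 0.977) by its brighter probe set, and by -0.0544 (adjusted p = 0.0351) by the other.

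In the microfibril and elastic fibre class 3 of the 8 measured genes were higher on high fat, beside 23.8% of all genes. The other 5 did not pass, and the class had a median difference of 0.108 units. Col6a2, a short chain of type VI collagen, ranged over 9.83, 10.25 and 10.58 units on high fat, against 9.48, 9.97 and 10.33 on chow. The median high fat pool lay near the upper end of the chow pools. Col6a2 was 0.261 ± 0.0361 units higher, in 32 of 39 strains (adjusted p = 1.23e-07).

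Col6a3, the long chain that completes the type VI trimer, ranged over 9.06, 9.44 and 9.99 units on high fat, against 8.79, 9.17 and 9.56 on chow. It was 0.249 ± 0.0362 units higher, in 33 strains (adjusted p = 3.24e-07). Col6a1, the other short chain, is needed in the same trimer and ranged over 10.91, 11.16 and 11.63 units on high fat, against 10.73, 11.12 and 11.48 on chow. Its difference of 0.0626 ± 0.0313 did not pass (adjusted p = 0.10), and its other probe set differed by 0.0459 (adjusted p = 0.523).

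The gap between the type VI chains was tested within strains, with 1 probe set per chain. Probe sets of a single gene can part as well, since those of Col1a2 differed between the diets by 0.0601 and 0.283 units. Whether a gap belongs to the genes or to their probe sets was not tested, here or for the other pairs. Col6a1 responded less than Col6a2 by -0.198 units (95% interval -0.259 to -0.138, sign-flip permutation test over strains, two-sided, adjusted p = 8.5e-05, where the raw p was the lowest possible with the draws made), and Col6a1 exceeded Col6a2 in response in 4 of 39 strains. Against Col6a3 the gap was -0.187 units (-0.267 to -0.107, adjusted p = 0.00017). Between Col6a2 and Col6a3 it was 0.0118 units, with an interval of -0.0667 to 0.0903. Col6a1 and Col6a2 are neighbours on chromosome 10 with 0 protein-coding genes between them. The promoter window of Col6a2 holds the GC box shown above, and those of Col6a1 and Col6a3 hold none. Whether promoter letters bear on the response was not tested.

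Fbln2, a fibulin of elastic fibres and basement membranes, ranged over 10.36, 10.77 and 11.44 units on high fat, against 10.04, 10.60 and 11.12 on chow, and was 0.154 ± 0.0325 units higher in 32 strains (adjusted p = 0.00015). Mfap5, a microfibril glycoprotein, differed by 0.118 ± 0.0502 and just missed the threshold (adjusted p = 0.0519). It passed in 12 of the 39 fits that left out 1 strain each, with the lowest adjusted p at 0.0246. Fbln1, a related fibulin, and Mfap4, which binds elastic fibres, differed by 0.0977 and 0.0957 with standard errors of 0.0555 and 0.0692. Eln (elastin), the core of elastic fibres, differed by -0.0179 (adjusted p = 0.83) against the direction of its class.

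Both measured crosslinking enzymes were higher on high fat, beside 23.8% of all genes. Loxl1, which acts on elastin and collagen, ranged over 10.54, 11.15 and 11.60 units on high fat, against 10.56, 10.91 and 11.64 on chow, and was 0.165 ± 0.0387 units higher in 30 strains (adjusted p = 0.000533). Lox, the lysyl oxidase that joins collagen molecules, ranged over 7.46, 8.31 and 9.06 units on high fat, against 7.74, 8.11 and 8.94 on chow. It was 0.129 ± 0.0511 units higher in 26 strains (adjusted p = 0.036). The call for Lox was lost in 6 of the fits that left out 1 strain, with adjusted p up to 0.0652, whereas that for Loxl1 held in all 39.

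Of the 3 other collagens none was called, beside 45.0% of all genes. Col8a1, a network collagen of vessel walls, differed by 0.0934 ± 0.0483 (adjusted p = 0.112, limma) and passed once BXD43 was left out (adjusted p = 0.0431). Col14a1, which sits on fibril surfaces, differed by 0.0249 (adjusted p = 0.791). Col12a1, its relative, differed by -0.0762 (adjusted p = 0.195), below 0 while the class median was 0.0249.

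Proteoglycans were higher on high fat in 3 of 4 cases, beside 23.8% of all genes. Vcan (versican), a large hyaluronan-binding proteoglycan of loose matrix, ranged over 9.13, 9.68 and 10.48 units on high fat, against 8.75, 9.37 and 10.04 on chow, and was 0.331 ± 0.0528 units higher in 35 of 39 strains (adjusted p = 1.92e-06). Lum (lumican), which sets fibril diameter, ranged over 10.48, 11.06 and 11.59 units on high fat, against 10.37, 10.88 and 11.40 on chow. It was 0.175 ± 0.0434 units higher in 28 strains (adjusted p = 0.00101).

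Bgn (biglycan), a small proteoglycan released on injury, ranged over 14.15, 14.75 and 15.14 units on high fat, against 14.09, 14.57 and 15.02 on chow, and was 0.144 ± 0.0358 units higher in 32 strains (adjusted p = 0.00104). Dcn (decorin), its close relative, ranged over 14.74, 15.15 and 15.38 units on high fat, against 14.88, 15.12 and 15.45 on chow. Dcn differed by -0.00649 ± 0.0244 (adjusted p = 0.851), and its response lay below that of its neighbour gene Lum by -0.181 units (95% interval -0.254 to -0.109, sign-flip permutation test, adjusted p = 0.00017). Dcn lies high on the scale, with 87 probe sets brighter and array maxima between 16.5 and 16.9, and whether the array still responds in proportion there was not tested.

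The matricellular genes held the largest difference and the smallest adjusted p of all members. Postn (periostin), a protein of activated fibroblasts, ranged over 10.70, 11.86 and 12.91 units on high fat, against 10.50, 11.44 and 12.20 on chow. It was 0.403 ± 0.0833 units higher (adjusted p = 0.000115) in 29 strains, and its differences by strain ran between -0.685 in BXD61 and 1.53 in BXD81. Sparc, which binds collagen and guides its assembly, was narrower in range.

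Sparc ranged over 12.09, 12.46 and 12.84 units on high fat, against 11.89, 12.24 and 12.54 on chow, and was 0.247 ± 0.0276 units higher in 35 of 39 strains (adjusted p = 9.86e-10). Its lowest difference by strain was -0.089 in BXD61 and its highest 0.621 in BXD48. Fn1 (fibronectin), an adhesive glycoprotein, differed by 0.106 ± 0.0593 (adjusted p = 0.143), with 1.21 in BXD63 as its highest value. Tnc (tenascin C), typical of remodelling tissue, differed by -0.0325 (adjusted p = 0.567).

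In matrix turnover 2 of 3 genes were higher, beside 23.8% of all genes. Mmp2, the gelatinase that cuts type IV and denatured collagens, ranged over 11.89, 12.50 and 12.81 units on high fat, against 11.66, 12.32 and 12.78 on chow, and was 0.171 ± 0.0381 units higher in 29 strains (adjusted p = 0.000299). Timp2, an inhibitor that also takes part in activating Mmp2, was 0.0872 ± 0.0364 units higher in 25 strains (adjusted p = 0.047). That call was lost in 23 of the 39 fits that left out 1 strain. Mmp2 exceeded Timp2 in response by 0.0839 units (95% interval 0.0146 to 0.153, adjusted p = 0.0498, sign-flip permutation test), and Timp3, the inhibitor held in the matrix, differed by -0.0477 (adjusted p = 0.362).

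**Figure D2:**
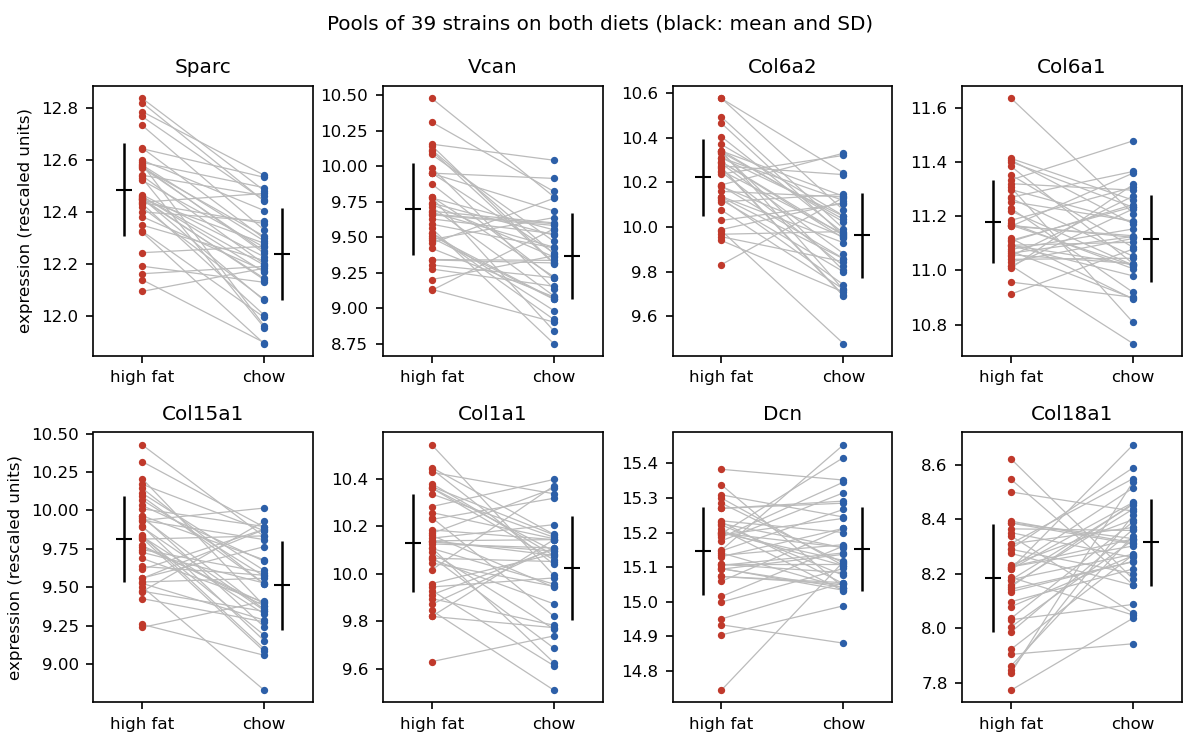
Levels (y axis, rescaled expression units) of 8 matrix genes in the high fat pool and the chow pool (x axis) of each of 39 strains; lines join the pools of a strain, and black marks give the mean and SD. Sparc, Vcan, Col6a2 and Col15a1 are higher on high fat in 31 to 35 strains, Col6a1 in 24, Col1a1 in 27 and Dcn in 20, and Col18a1 is lower in 27.

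Markers of other cell types were read in the same test, which called 23.8% of all genes higher and 21.2% lower. Of 11 mesothelial markers, genes of the cells that cover the heart's surface, 7 were higher on high fat and the other 4 did not pass, and the mean level of the list ranged over 7.87, 8.31 and 8.79 units on high fat, against 7.72, 8.12 and 8.58 on chow. Only 6 of these 11 markers lie above the median level of all genes. Calb2, with the smallest adjusted p of the list, averaged 6.06 on high fat and 5.74 on chow, near the ERCC mean of 5.96. Of 12 macrophage markers 7 were higher and the other 5 did not pass, with mean levels of 9.37, 9.74 and 10.34 on high fat, against 9.33, 9.64 and 10.15 on chow. Of 12 fibroblast markers 3 were higher (Pdgfra, Ddr2 and Vim) and Scara5 was lower, and the list's mean level ranged over 10.68, 10.89 and 11.16 on high fat, against 10.60, 10.86 and 11.23 on chow. Of 10 cardiomyocyte markers 6 were lower, with mean levels of 14.69, 14.89 and 15.13 on high fat, against 14.76, 14.92 and 15.16 on chow. The scale has no true 0, so no marker can be called absent.

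Valve and cartilage markers gave 4 higher and 1 lower of 12, with mean levels of 7.72, 8.15 and 8.62 units on high fat, against 7.67, 8.12 and 8.52 on chow. Of 10 pericyte and smooth muscle markers 2 were higher (11.35, 11.77 and 12.03 on high fat, against 11.51, 11.78 and 12.13 on chow), and of 10 endothelial markers 2 were higher and 1 lower (11.92, 12.05 and 12.17 on high fat, against 11.86, 12.03 and 12.16 on chow). Of 7 adipocyte markers 1 was higher and 1 lower (7.54, 8.01 and 9.10 on high fat, against 7.56, 7.86 and 9.31 on chow). Of 9 atrial markers 1 was higher, and their mean level ranged over 9.18, 11.91 and 13.19 units on high fat, against 9.25, 11.64 and 12.96 on chow, so the pools of both diets differed by several units in atrial transcripts.

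With the mean of the fibroblast markers in the fit 17 members were called higher, with the atrial markers 19 and with the mesothelial markers, a fit added after the values were seen, 12. In that last fit Col6a2 (0.253), Col6a3 (0.237), Lamb1 (0.219), Sparc (0.229), Vcan (0.245), Col15a1 (0.261), Col4a1 (0.187), Col4a2 (0.192), Fbln2 (0.171), Hspg2 (0.111), Postn (0.224) and Mmp2 (0.112) stayed called. Calls were lost for Col1a1 (0.0607, adjusted p = 0.238), Col5a1 (0.0886, adjusted p = 0.0929), Lox (0.0395), Loxl1 (0.0907), Lum (0.10), Bgn (0.0662) and Timp2 (-0.0218). Col5a1 thus kept most of its difference of 0.0985. Lower calls numbered 6 in that fit, for Col18a1, Eln, Col12a1, Col14a1, Dcn and Timp3. It called 17.8% of all genes lower, so the number of lower calls does not set the members apart. Why the fits differ was not tested.

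Genes that act on the matrix were read from lists by role, and their counts stand against the shares of all genes given above, 23.8% higher and 21.2% lower. Of 23 genes for collagen folding and processing 5 were higher and 4 lower. Serpinh1, the collagen chaperone Hsp47, averaged 10.54 ± 0.305 units on high fat and 10.32 ± 0.251 on chow (SD, n = 39 strains), a difference of 0.225 (adjusted p = 0.000302, limma). P3h1, a prolyl 3-hydroxylase, was 0.173 units higher and Bmp1, the protease that removes the carboxyl propeptide, 0.139 units higher. Tll1, a relative of Bmp1, was lower by -0.21 (adjusted p = 0.000133).

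Of 24 genes of the TGF-beta system 11 were higher and 4 lower. Ccn2, the connective tissue growth factor, averaged 11.75 ± 0.404 units on high fat and 12.06 ± 0.51 on chow, a difference of -0.307 that was below 0 in 31 strains (adjusted p = 5.22e-05). Ccn5, a relative that lacks the carboxyl module of Ccn2, averaged 10.25 ± 0.241 on high fat and 9.996 ± 0.267 on chow and was 0.258 units higher in 32 strains (adjusted p = 2.21e-07). The ligand gene Tgfb1 was 0.162 units higher (adjusted p = 0.000138) and the receptor gene Tgfbr2 0.125 units higher (adjusted p = 0.000157).

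Of 24 matrix receptors 10 were higher and 3 lower. The collagen-binding integrin chains Itga2 and Itga11 were 0.189 and 0.14 units higher (adjusted p = 0.000589 and 0.000763). Itgb8, an integrin chain that activates latent TGF-beta, was 0.233 units higher in 30 strains (adjusted p = 0.000312). Ddr2, the fibrillar collagen receptor that is also on the fibroblast marker list, was 0.114 units higher in 30 strains (adjusted p = 0.000522).

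The response was uneven over strains. The mean difference of the 38 members was 0.105 ± 0.156 units (SD over 39 strains) and lay above 0 in 28 strains. It was highest in BXD63 at 0.387, followed by BXD75 at 0.361 and BXD81 at 0.327. It was lowest in BXD90 at -0.263, where 8 of 38 members were higher on high fat, and was -0.197 in BXD61 with 6 of 38. With 1 pool per strain and diet, a single strain's value has no replicate, and the parents had means of 0.119 (DBA/2J) and 0.0314 (C57BL/6J).

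The lowest strain was the same in 5 of the 8 classes. BXD90 had the lowest mean in fibrillar collagens (-0.404), microfibrils (-0.313), crosslinking enzymes (-0.299), matricellular genes (-0.457) and turnover genes (-0.375), but BXD61 had it in basement membrane genes (-0.195), where BXD90 stood at -0.00478. BXD63 had a basement membrane mean of -0.0534 beside means of 0.522 in microfibrils and 0.719 in matricellular genes. In BXD43 the other collagens had a mean difference of -0.618, while its basement membrane mean was 0.231.

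**Figure D3:**
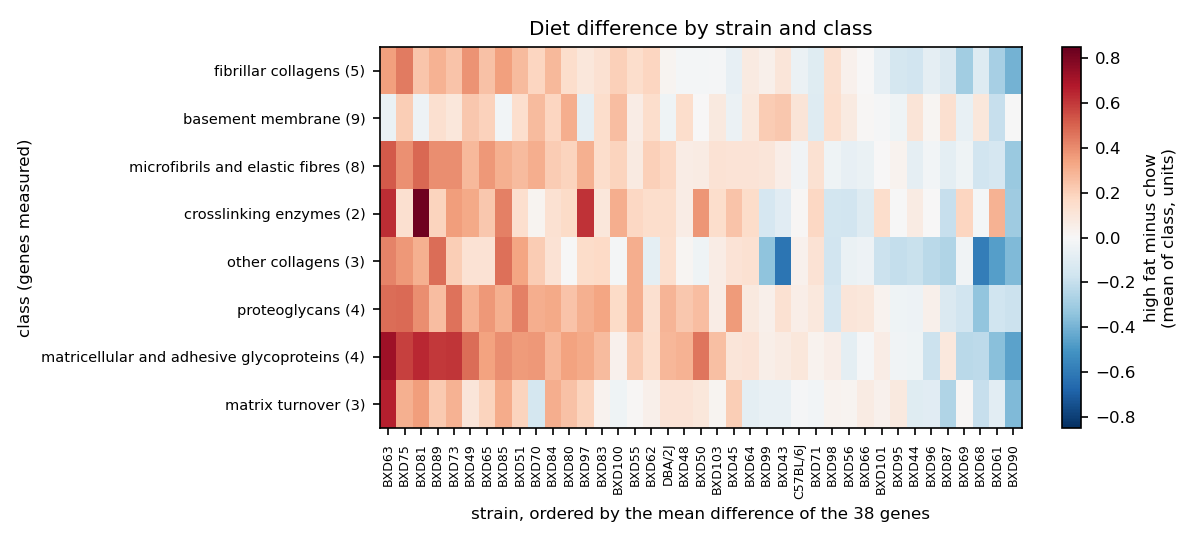
Mean difference between high fat and chow (colour, rescaled expression units) of each class of matrix genes (y axis, number measured in brackets) in each of 39 strains (x axis, ordered by the mean of the 38 genes). BXD63 at the left had a mean of 0.387 and BXD90 at the right -0.263, and the basement membrane row is paler than the others, with a range of -0.195 to 0.307.

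The next comparison asked how far matrix levels belonged to the strain. Of the 38 members 22 differed between strains (limma's F test, adjusted p under 0.05), against 14.8% of all genes and 23.5% of the genes above the median level. The intraclass correlation between the high fat and the chow pool of a strain, taken after the diet means were removed, had a median of 0.41 over the members, against 0.155 over all genes and 0.243 over those above the median level. Both pools of a strain are separate animals, so a high value means that the strain's level recurred on the other diet.

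Fbln2 had the highest value of the members, 0.67 (adjusted p = 2.36e-05, limma's F test). Its strain means over both diets ran between 10.26 in BXD51 and 11.07 in BXD70. Other microfibril genes gave 0.523 for Mfap5 (9.99 in BXD103 to 11.35 in BXD70) and 0.445 for Mfap4 (9.89 in BXD68 to 11.47 in BXD99). Eln had the lowest value, -0.0889, so a strain's elastin level on one diet did not recur on the other.

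In the basement membrane Lama2 reached 0.596 (adjusted p = 0.00748) and Nid1 0.566 (adjusted p = 0.00293), and neither passed for diet by this probe set. Lama2 was lowest in BXD96 at 11.70 and highest in BXD97 at 12.18. Nid1 was lowest in BXD96 at 12.22 and highest in DBA/2J at 12.85. Col4a2 gave 0.455 (adjusted p = 0.0171), and Col18a1, the member that fell with diet, 0.0676 (adjusted p = 0.47).

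Sparc combined a strain value of 0.587 (adjusted p = 0.00139) with its diet difference. It was lowest in BXD100 at 12.02 and highest in DBA/2J at 12.66. Postn gave 0.366 (adjusted p = 0.0258), with strain means of 10.99 in BXD103 to 12.50 in BXD83, and Fn1 0.117 (adjusted p = 0.314).

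All 3 turnover genes differed by strain, with 0.545 for Mmp2, 0.50 for Timp2 and 0.408 for Timp3. Mmp2 ran between 11.78 in BXD50 and 12.76 in BXD95. Both crosslinking enzymes differed as well, with 0.478 for Loxl1 and 0.469 for Lox. Of the proteoglycans Bgn (0.455), Lum (0.448) and Vcan (0.413) passed, and Dcn (0.397) did not (adjusted p = 0.101). Of the fibrillar collagens Col1a1 passed (0.451, adjusted p = 0.0139), with strain means between 9.68 in BXD48 and 10.38 in BXD99, and the other 4 ranged between 0.208 for Col5a2 and 0.334 for Col1a2.

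**Figure D4:**
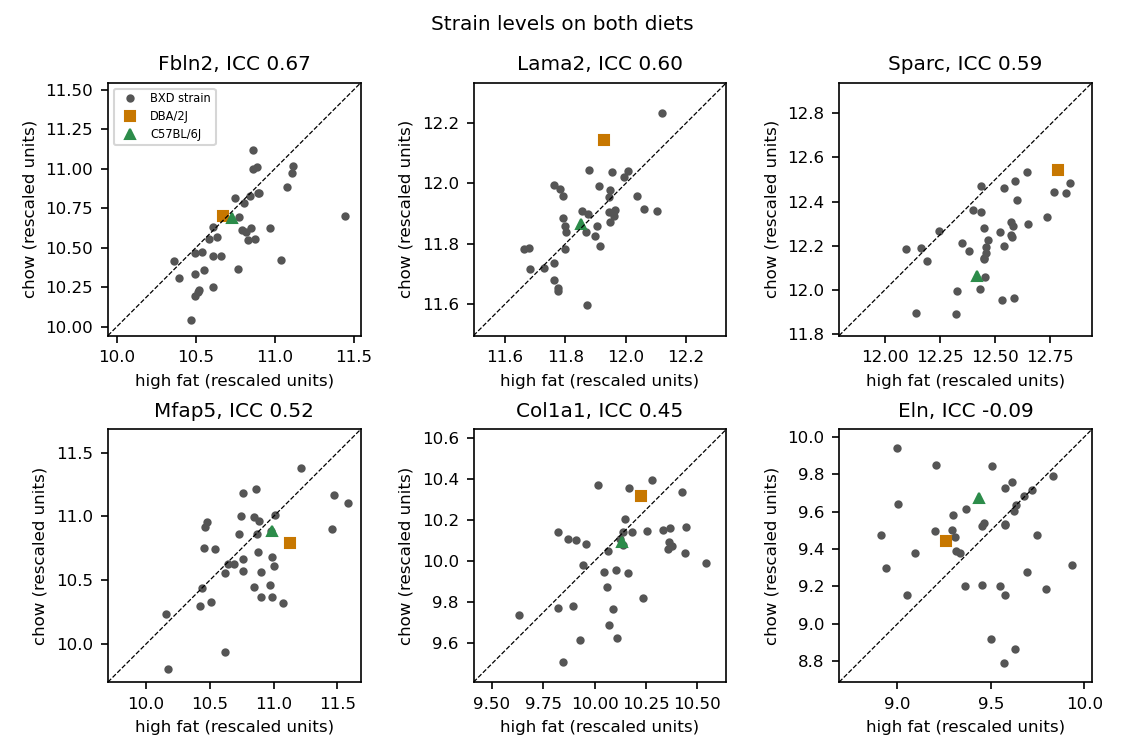
Level in the high fat pool (x axis) against the chow pool (y axis) of each strain, in rescaled expression units, for 6 matrix genes with their intraclass correlation (ICC); the dashed line marks equal levels. Fbln2 (0.67), Lama2 (0.60) and Sparc (0.59) follow the line or run beside it, and Eln (-0.09) scatters across it.

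The parents were compared in the same fit with 2 arrays each. Variants under the probes were not checked, so a gap in signal and a gap in transcript cannot be told apart here. Of the 38 members 2 differed between DBA/2J and C57BL/6J, against 2.36% of all genes and 3.53% of those above the median level. Col8a1 read 10.33 units on high fat and 10.21 on chow in DBA/2J, against 9.46 on high fat and 9.31 on chow in C57BL/6J. Both DBA/2J arrays lay above both C57BL/6J arrays, and the difference was 0.886 ± 0.213 (SE, adjusted p = 0.0113, limma).

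Over all strains the mean of Col8a1 was lowest in C57BL/6J at 9.38 and highest in BXD70 at 10.37. Sparc read 12.79 units on high fat and 12.54 on chow in DBA/2J, against 12.42 on high fat and 12.06 on chow in C57BL/6J. That difference was 0.424 ± 0.122 (adjusted p = 0.0494, limma). Lamc1 (0.429 ± 0.126, adjusted p = 0.0567) and Col4a1 (0.508 ± 0.151, adjusted p = 0.0624) came next and did not pass.

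Finally, members that assemble together or lie side by side in the genome were compared over strains. Pearson's r of the strain means over 39 strains was computed for 17 of the 20 listed pairs, the others needing Fbn1 or Loxl2, with 100000 permutations and adjustment over the 17. The chains of type I collagen, Col1a1 and Col1a2, had r = 0.845 and Spearman's rho = 0.836 (each permutation p = 1e-05, the smallest the draws can give, adjusted p = 1.7e-05 and 2.43e-05). Within the diets r was 0.878 on high fat and 0.746 on chow, and it was 0.807 without BXD44 and BXD48, the strains farthest from the median.

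Col1a1 followed Col3a1 (r = 0.803, rho = 0.84), Loxl1 (r = 0.75, rho = 0.712) and Fn1 (r = 0.702, rho = 0.682) nearly as closely, each at an adjusted permutation p of 1.7e-05 for r. Within the diets these were 0.812, 0.645 and 0.707 on high fat, against 0.746, 0.78 and 0.675 on chow. Sparc followed Col1a1 less closely (r = 0.371, adjusted permutation p = 0.0228, rho = 0.386, adjusted p = 0.0176). Lox did not pass with Col1a1 (r = 0.283, adjusted permutation p = 0.0812, rho = 0.246, adjusted p = 0.131).

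Among basement membrane pairs Lama2 and Lamc1 had r = 0.768 (rho = 0.766), Col4a1 and Col4a2 r = 0.741 (rho = 0.749), Nid1 and Lamc1 r = 0.599 (rho = 0.502) and Lamb1 and Lamc1 r = 0.45 (rho = 0.416), all with an adjusted permutation p for r of 0.00514 or less. Within the diets the first of these was 0.644 on high fat and 0.775 on chow, and that of Nid1 and Lamc1 0.267 on high fat and 0.589 on chow. Col6a1 and Col6a2, whose probe sets differed in diet response, still had r = 0.734 over strains (rho = 0.807), with 0.704 on high fat and 0.675 on chow. Col6a3 had r = 0.55 with Col6a1 (rho = 0.518) and 0.496 with Col6a2 (rho = 0.477), with adjusted permutation p of 0.000397 and 0.00174 for r.

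The neighbour genes Dcn and Lum had r = 0.67 (rho = 0.65), with 0.699 on high fat and 0.594 on chow, and Col3a1 and Col5a2 r = 0.685 (rho = 0.695), with 0.587 on high fat and 0.588 on chow. No protein-coding gene lies between the members of either pair. Col5a1 and Col5a2 had r = 0.666 (rho = 0.687), with 0.359 on high fat and 0.465 on chow, lower within each diet than for the means. For Mmp2 and Timp2 r was 0.309 (adjusted permutation p = 0.0607) and rho 0.361 (adjusted p = 0.0274), so the call differs between the measures. Without the 2 strains farthest from the median of the first gene, r of the 17 pairs ran between 0.258 for Col1a1 with Lox and 0.807 for Col1a1 with Col1a2.

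Over all 703 pairs of members the median r was 0.404 and 93.88% of pairs lay above 0. Over all pairs of 11090 genes above the median level the median was 0.024 and 54.58% lay above 0. These values describe strain means that share the same arrays and the same tissue pieces. Within the diets the members' median r was 0.358 on high fat and 0.37 on chow.

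Some members stood outside this shared pattern. Lamb1 had a median r of 0.0966 with the other members, Col18a1 0.132 and Timp3 0.161. Each had values of both signs, as some other members did. Timp3 ran between -0.614 with Lamb1 and 0.547 with Fbln1. Lamb1 reached 0.478 with Lama2, and Col18a1 ran between -0.303 with Mmp2 and 0.484 with Fn1. The highest medians were those of Col1a2 (0.594), Bgn (0.567) and Col1a1 (0.558). By strain means, the gene closest to Postn was Mfap5 (r = 0.844), the one closest to Timp2 was Col14a1 (r = 0.798), and the one closest to Col4a2 was Hspg2 (r = 0.743), ahead of Col4a1.

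**Figure D5:**
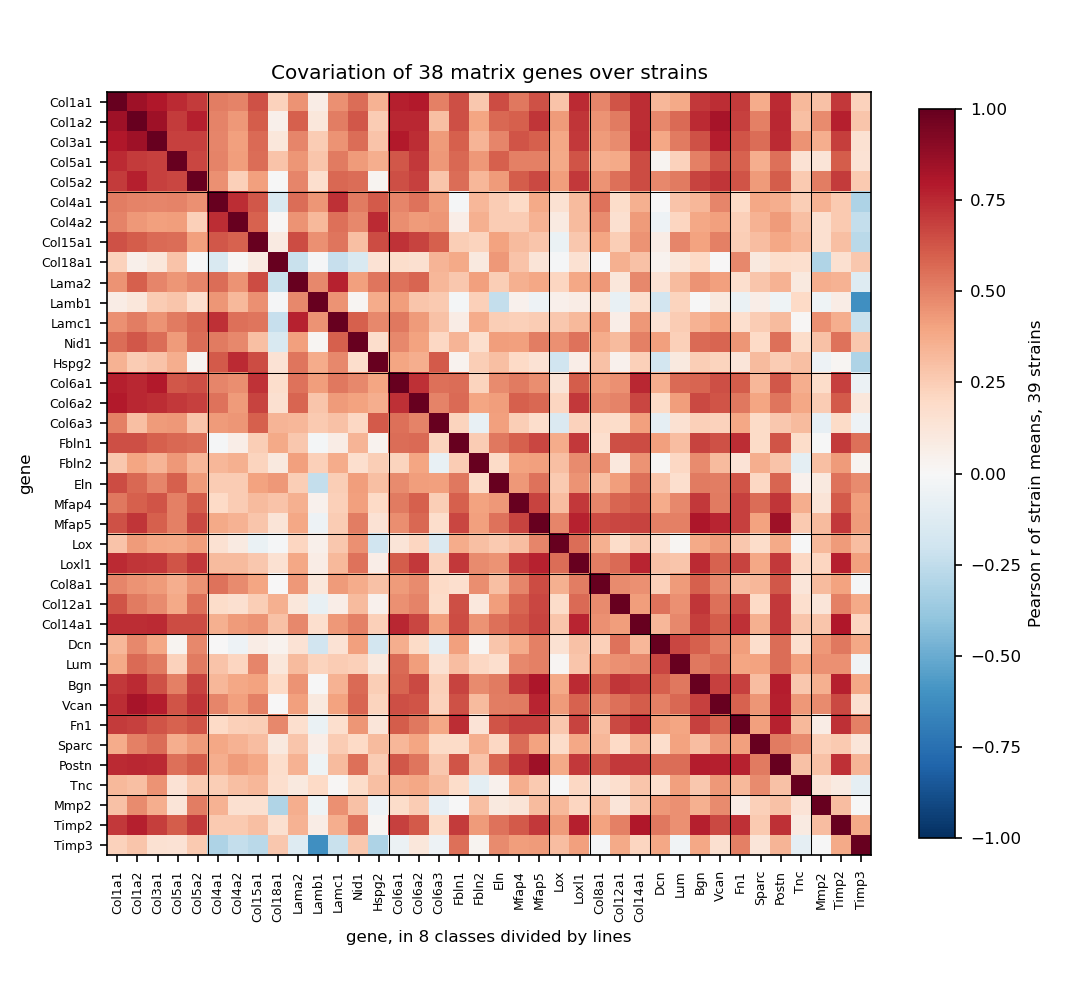
Pearson's r of strain means over 39 strains (colour) between each pair of the 38 matrix genes (both axes), with lines between the 8 classes. Most cells are above 0, with a median of 0.404 over 703 pairs. The rows of Lamb1, Col18a1 and Timp3 have the lowest medians, 0.0966, 0.132 and 0.161, and these rows, like some others, hold values of both signs.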

How the data were processed

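RNA pools of mouse hearts were read on Affymetrix arrays. Affymetrix Expression Console was used on them, per the submitters' processing notes, which name no version. How background was corrected, probes summarised and logs taken is not given in the sources used. The authors deposited a score for each of 41345 probe sets, rescaled so that all 81 arrays average 8 with an SD of 2, which removes shifts shared by most transcripts. The plan assumed log-scale values. The score was tested as deposited, with no fold.

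Gene names came from the platform's annotation table (23521 with 1 symbol, 1814 with several, 16010 unnamed), and 1 probe set, that with the highest mean, was used for each of 22180 genes. Promoter letters and gene order are from RefSeq (GRCm38.p6). No source used here names the array's genome build.

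For diet, lmFit and eBayes of limma 3.58.1 (R 4.3.3) were run over the 78 arrays of 39 strains with diet and strain in the model, and p-values were adjusted over all genes (Benjamini-Hochberg). The same fit gave limma's F test over strains and the contrast of the parents. Strain labels pair the arrays: a strain's high fat and chow pools share its genotype. Pair correlations and sign-flip tests used 100000 draws (numpy 2.4.6, scipy 1.17.1, Python 3.11.15). The fits were tested on simulated data. Array weights used statmod 1.5.0.

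Members and lists were chosen with earlier results of these data known. In each class values are given for the members with the smallest adjusted p for diet or the highest intraclass correlation (at most 3 each) and for members that oppose their class. From each list of other matrix genes up to 4 with the smallest adjusted p are named. Tests of the gap between pairs and the mesothelial covariate were added after the values were seen. Alternatives covered the strain block, scaling, dim genes, probe sets, array weights, variance model, strains and marker covariates.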

Additional observations from a re-analysis of the deposited data

How the results depend on the processing

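The count of 19 members higher on high fat was 19 after quantile normalization, 20 after median centring, 19 of 36 without genes below the median level, 20 with the mean of all probe sets of a gene, 20 with array weights, 20 with a trended robust prior, 18 in BXD strains alone, 19 with the atrial and 17 with the fibroblast marker mean as covariate. It was 14 with no replicate block over all 81 arrays, a fit that leaves out the strain pairing and also adds the 3 chow-only arrays, and Col1a1, Col5a1, Hspg2, Lox and Timp2 lost their calls. With the mesothelial marker mean it was 12, and the cause was not tested. The count of 1 lower member was 2 with the fibroblast and 6 with the mesothelial marker mean, and 1 under the other settings named. Of all genes 20.6% were lower with the fibroblast and 17.8% with the mesothelial marker mean. Leaving out 1 strain at a time gave 16 to 20 higher members and 1 lower member in each fit. The strain count of 22 was 22 after quantile normalization, 21 after median centring, 19 in BXD strains alone, 23 with the mean of probe sets and 27 of 36 without dim genes.

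Directions turned for the following members. With the mesothelial marker mean the differences were -0.0129 for Col1a2, -0.0484 for Col3a1, -0.0429 for Col5a2, 0.00932 for Lama2, -0.0673 for Fbln1, -0.0551 for Mfap4, -0.16 for Col14a1 (called lower, adjusted p = 0.0272, limma), -0.0381 for Fn1 and -0.0218 for Timp2. With the fibroblast mean they were -0.0135 for Col5a2 and -0.0574 for Col14a1, and with the atrial mean -0.00782 for Col14a1. Median centring gave 0.000308 for Lama2, 0.00697 for Nid1 and 0.00167 for Dcn. Nid1 was 0.00056 with no replicate block, 0.0030 with array weights and 0.00346 in BXD strains alone. Timp2 alone of these was called in the diet comparison as reported. Quantile normalization and median centring moved the median of all genes by -0.00227 and 0.00815 units. Of 17 pair correlations 16 kept their side of the threshold after quantile normalization and 16 without the 2 strains farthest from the median.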

Other observations

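Of 29 measured collagens outside the 40 genes 5 were higher on high fat and 10 lower, against 23.8% and 21.2% of all genes, with a median difference of -0.0636 units, and 11 of them lie above the median level of all genes. Col6a6, an alternative long chain of type VI collagen, averaged 8.86 ± 0.196 units on high fat and 9.12 ± 0.198 on chow (SD, n = 39 strains), a difference of -0.267 that was below 0 in 37 strains (adjusted p = 6.89e-09, limma). Col13a1, a transmembrane collagen, differed by -0.204 (adjusted p = 4.85e-07). Col11a1 and Col9a3, chains of cartilage collagens, differed by -0.323 and 0.359, at levels below the median of all genes.

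Of 19 further matrix proteases and inhibitors 2 were higher and 5 lower, against the same shares of all genes. Timp4, the inhibitor most typical of the heart, averaged 10.73 ± 0.543 units on high fat and 11.16 ± 0.462 on chow, a difference of -0.427 that was below 0 in 32 strains (adjusted p = 4.52e-06, limma). The collagenase and gelatinase genes Mmp8 and Mmp9 differed by -0.256 and -0.248 (adjusted p = 5.91e-05 and 5.97e-06), and Adamts4, an aggrecanase, by 0.187 (adjusted p = 0.00178). Mmp8 lay low on the scale, at 6.49 units on high fat and 6.75 on chow, against a median gene level of 8.18. The ERCC probe sets, at a mean level of 5.96, had a 95th percentile of absolute difference of 0.247 units.

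The 3 strains with a chow array alone entered no comparison of the diets within strains. All 38 members lay inside the range of the 39 chow pools in BXD79 and in BXD92a, and 37 did in BXD60, where Col5a2 read 8.42 units.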
